A study of Homo sapiens with 10 samples.

Results

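The genes described here encode 8 receptors through which myeloid cells sense chemoattractants: the formyl peptide receptors FPR1, FPR2 and FPR3, the anaphylatoxin receptors C5AR1 and C3AR1, and the lipid mediator receptors PTAFR, LTB4R and CYSLTR1. They were chosen by symbol among the protein-coding rows and are 8 of 60603 genes in the deposited tables, of which 19975 are protein-coding. All were measured by mRNA-seq in NB4, a human line of acute promyelocytic leukemia cells. In the first experiment the cells received the lentiviral vector pLKO.1 puro, either empty (EV) or with an shRNA, shA1 or shB2, to target GSE1, whose protein is found in LSD1 complexes, and were collected 48 h later. In the other experiment, cells received DMSO or 2 µM of the LSD1 inhibitor MC2580 for 24 h. Each of the 5 groups has 2 biological replicates, 10 samples in all. Every sample comes from this 1 cell line, so the replicates are cultures and not donors.

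All 8 receptors span the membrane repeatedly and pass their signal to heterotrimeric G proteins, mostly of the Gi class, whose released subunits activate phospholipase C beta and PI3K gamma and through them calcium release, directed movement, the oxidative burst and degranulation. Bacterial formyl peptides are read by FPR1 and FPR2, the complement fragments C5a and C3a by C5AR1 and C3AR1, platelet-activating factor by PTAFR, leukotriene B4 by LTB4R and cysteinyl leukotrienes by CYSLTR1. Promyelocytes carry few of these receptors, and neutrophils and monocytes gain many of them as they mature.

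On GRCh38 (GENCODE release 44) the formyl peptide receptors lie together, with FPR1 on the minus strand at chr19:51745172-51804115, FPR2 on the plus strand at chr19:51752026-51770531 and FPR3 on the plus strand at chr19:51795157-51826190. The annotated span of FPR1 overlaps both others, but they share 0 exon bases. C5AR1 lies on the same chromosome at chr19:47290023-47322066, on the plus strand, with C5AR2, which encodes the other C5a receptor, 10109 bases to its right. C3AR1 is at chr12:8056844-8066359, PTAFR at chr1:28147166-28193936 and CYSLTR1 at chrX:78271468-78327691, all on the minus strand. LTB4R, at chr14:24311450-24318036 on the plus strand, shares 355 exon bases with LTB4R2, the gene of another leukotriene B4 receptor, so its reads could be split between them. For FPR2 and FPR3, 14 stretches of 50 bases are the same in both transcripts.

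Promoter sequences from RefSeq (GRCh38.p14) were found for 7 of the 8 genes, in 9 windows from 250 bases before to 50 bases after a start site. The 3 shown, from 250 bases before to 30 bases after the start, belong to the receptors that passed the test with shB2. The capitals mark exact matches, on either strand, to the core letters of motifs of 3 kinds of myeloid transcription factor. The letters searched were AATCAC for GFI1, a DNA-binding partner of LSD1. For PU.1 they were GAGGAAG, and for C/EBP proteins TTGCNNAA. These motifs do not overlap each other in the matches found.
C5AR1, chr19:47309611-47309890, plus strand: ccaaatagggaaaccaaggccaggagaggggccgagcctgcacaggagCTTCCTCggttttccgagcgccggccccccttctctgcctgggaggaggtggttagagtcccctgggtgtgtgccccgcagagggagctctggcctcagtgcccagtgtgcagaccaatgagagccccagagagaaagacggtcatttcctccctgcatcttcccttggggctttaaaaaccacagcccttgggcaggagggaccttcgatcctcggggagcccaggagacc
CYSLTR1, chrX:78327582-78327861, minus strand: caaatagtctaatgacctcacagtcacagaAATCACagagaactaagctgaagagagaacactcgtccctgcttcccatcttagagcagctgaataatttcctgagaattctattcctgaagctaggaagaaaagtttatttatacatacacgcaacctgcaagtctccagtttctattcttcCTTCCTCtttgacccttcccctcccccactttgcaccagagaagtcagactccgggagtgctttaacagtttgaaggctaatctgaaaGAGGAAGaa
PTAFR, at the more downstream of its listed start sites, chr1:28176661-28176940, minus strand: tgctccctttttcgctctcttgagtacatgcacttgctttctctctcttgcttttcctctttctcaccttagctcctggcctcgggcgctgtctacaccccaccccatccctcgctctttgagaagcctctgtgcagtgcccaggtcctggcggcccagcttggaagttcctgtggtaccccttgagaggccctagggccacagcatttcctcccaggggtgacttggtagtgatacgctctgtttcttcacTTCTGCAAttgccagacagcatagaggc

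Counted from the start site, the PU.1 letters begin at -202 in C5AR1 and at -67 and 22 in CYSLTR1, which also holds the GFI1 letters at -220. The C/EBP letters begin at 3 in PTAFR. Among the remaining windows, 1 match was found, to the GFI1 letters at -20 in FPR2. The matches at 22 and -220 in CYSLTR1 are on the strand of the gene, and the other 4 are on the opposite strand. Of all 35116 promoter windows, 10.2% hold the GFI1 letters, 13.6% the PU.1 letters and 10.5% the C/EBP letters. The core of the interferon-stimulated response element is in 3.57% of all windows and in 0 of the 9. A match describes these letters only and is not a binding site.

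The deposited tables give, for each gene, a base mean, which is the average over an experiment's libraries of counts divided by size factors, and the log2 fold change of each comparison with its standard error (SE). They give no value per library, so the replicate spread enters through the SE alone and no value per sample can be shown. Base means summed to 40543130 in the knockdown and 41201112 in the inhibitor experiment. A gene passed the test where its log2 fold change was over 1 in size and its adjusted p was under 0.01, the threshold in the methods of the study. GSE1 was lower by both hairpins, with a log2 fold change of -0.77 (SE 0.13, DESeq2 adjusted p = 2.47e-07) for shA1 and -0.79 (SE 0.14, DESeq2 adjusted p = 7.66e-08) for shB2, short of the fold threshold, and was 0.07 (SE 0.20) with MC2580. KDM1A, the gene of LSD1, stayed between -0.05 and 0.03 in the 3 comparisons, none of them past the test. The promyelocyte label was checked against 8 markers, of which MPO had a base mean of 507000 and 825000 in the knockdown and inhibitor experiments, while ELANE was near 0 (1.1 and 3.87).

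Of the 8 receptors, 4 had high and 4 had low mRNA. Group levels implied by the base mean and the fold changes, divided by exon length to compare genes, were highest in EV for PTAFR at 157 normalized counts per kb, followed by C3AR1 and CYSLTR1, both at 109, and by C5AR1 at 42.3. LTB4R stood at 6.57 and FPR2 at 1.84 per kb, and FPR1 and FPR3 were at 0.1 and 0.0751. With shB2 the order was PTAFR at 650, C5AR1 at 401, CYSLTR1 at 249 and C3AR1 at 88.3 per kb, followed by FPR2 at 10.3, FPR1 at 4.32, LTB4R at 3.81 and FPR3 at 2. With shA1 it was PTAFR at 354, C3AR1 at 262, CYSLTR1 at 214 and C5AR1 at 139 per kb, with the other 4 between 0.764 and 3.29. In DMSO the order resembled that of EV, with PTAFR at 107, CYSLTR1 at 87.4, C3AR1 at 86.7 and C5AR1 at 37 per kb, but the experiments were normalized separately. These levels carry no error, so neighbours in the order cannot be separated, and the order is a description.

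**Figure D1:**
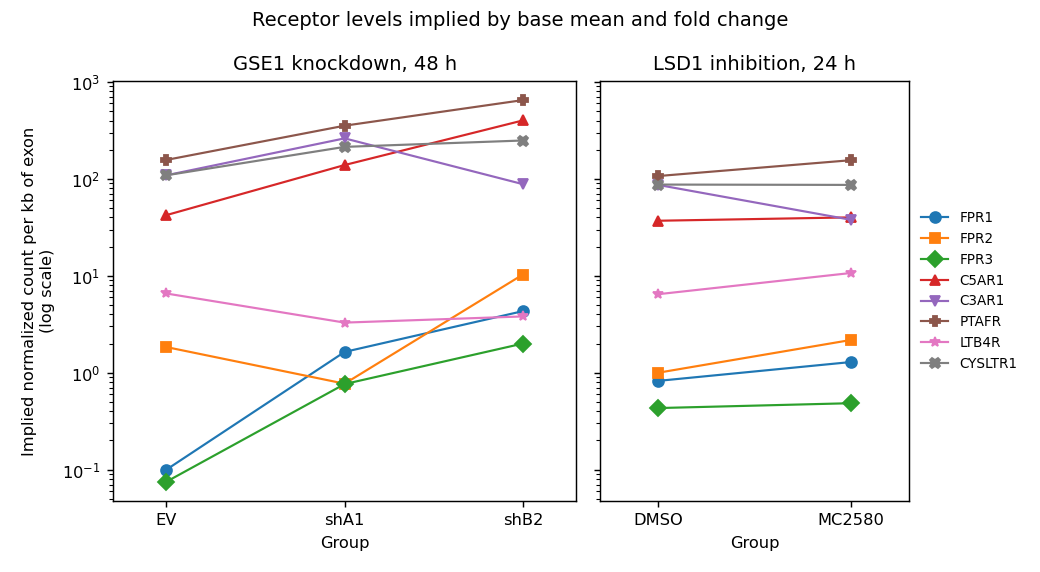
Group level of each receptor in normalized counts per kb of exon (vertical axis, log scale) in the knockdown groups (left) and the inhibitor groups (right), implied by the base mean and the fitted fold changes, with no error available. PTAFR, C5AR1, C3AR1 and CYSLTR1 stand above 30 in every group, and the other 4 receptors stand at 10.7 or less.

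With shA1, 2 of the 6 receptors tested rose and none fell, beside 4.32% of all 16673 tested genes that rose and 0.786% that fell. With shB2, 3 of 7 rose and none fell, beside 5.58% and 2.91% of 17913 genes. With MC2580, 0 of 6 passed in DESeq2, where 0.587% of 18554 genes rose and 0.0162% fell, and 2 of the 8 receptors had an unadjusted p under 0.05. The median log2 fold change of the tested receptors was 1.07 with shA1, 2.05 with shB2 and 0.33 with MC2580. The shB2 median includes FPR1, which the shA1 and MC2580 medians leave out, so they are not over the same receptors. The median over all tested genes was -0.00159, 0.00122 and -0.00118. FPR3 was tested in none of the comparisons and FPR1 only with shB2, because DESeq2 gives no adjusted p to genes with too low a base mean. The 2 hairpin comparisons share the EV libraries and are therefore not independent of each other.

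**Figure D2:**
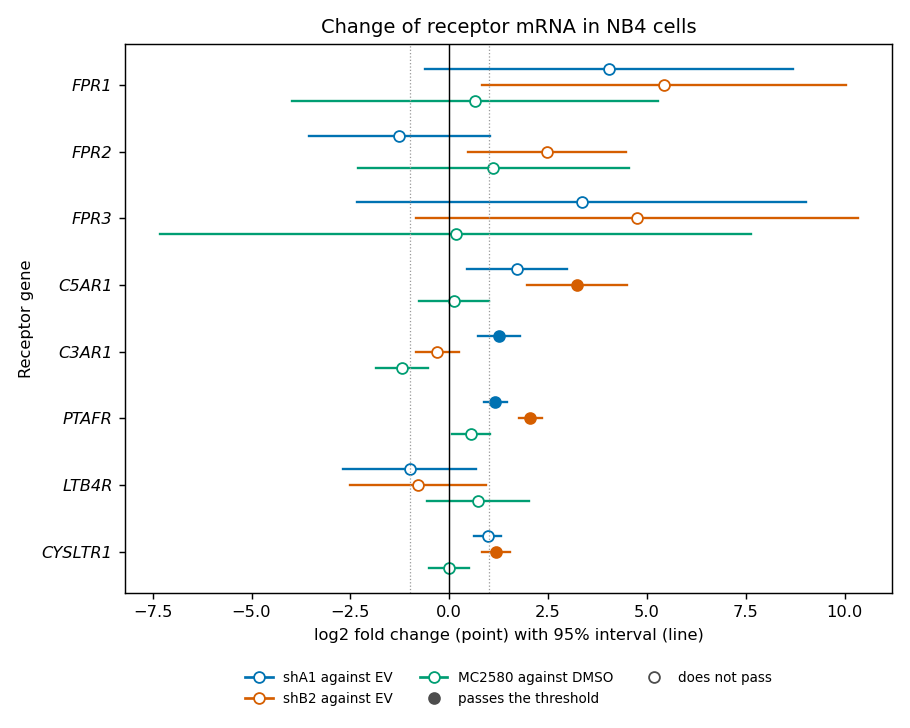
The log2 fold change of each receptor (point) with its 95% interval (line) for shA1 and shB2 against EV and MC2580 against DMSO, filled points having passed the test (dotted lines at 1 in size). PTAFR rose with both hairpins, C3AR1 rose with shA1 (1.27) and was at -1.20 with MC2580, and the intervals of FPR1 and FPR3 span several units.

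PTAFR, whose ligand platelet-activating factor primes neutrophils and monocytes, was the receptor with the smallest SE. Its implied level was 660 normalized counts in EV, 1490 with shA1 and 2740 with shB2. The log2 fold change was 1.17 (SE 0.15, DESeq2 adjusted p = 5.8e-14) with shA1, a 2.26-fold rise (95% interval 1.85 to 2.75). With shB2 it was 2.05 (SE 0.15, DESeq2 adjusted p = 9.62e-43), a 4.15-fold rise (95% interval 3.4 to 5.05) that ranked 46 among all tested genes by p. PTAFR thus passed with both hairpins and was higher with shB2. With MC2580 it went from 452 to 657 normalized counts, a log2 fold change of 0.54 (SE 0.25, DESeq2 adjusted p = 0.698), which did not pass.

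C5AR1, the main receptor for C5a on phagocytes, had the largest fold change that passed. Its implied level was 126 normalized counts in EV, 411 with shA1 and 1190 with shB2. With shB2 its log2 fold change was 3.24 (SE 0.65, DESeq2 adjusted p = 4.83e-06), a 9.47-fold rise with a 95% interval of 3.93 to 22.8. With shA1 it was 1.71 (SE 0.65, DESeq2 adjusted p = 0.0336) and did not pass. The SE of 0.65 was larger than that of 99.5% of the 1113 genes with a base mean within 1.25-fold, whose median SE was 0.19, and the spread between libraries behind it cannot be seen in the tables. With MC2580 the level was 119 against 110 in DMSO, a log2 fold change of 0.11 (95% interval -0.77 to 1.00).

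C5AR2, the neighbouring gene, encodes a C5a receptor that does not couple to G proteins. Its implied level was 99.6 normalized counts in EV, 138 with shA1 and 450 with shB2. It rose with shB2 by a log2 fold change of 2.18 (SE 0.28, DESeq2 adjusted p = 7.66e-14), while with shA1 it was 0.47 (SE 0.28, DESeq2 adjusted p = 0.228). INAFM1, on the other side of C5AR1, did not pass, at -0.17 with shA1 and -0.23 with shB2.

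C3AR1, the receptor for C3a, rose with shA1, and its values with shB2 and MC2580 were below 0. Its implied level was 381 normalized counts in EV, 916 with shA1 and 308 with shB2, and in the other experiment 303 in DMSO and 132 with MC2580. Its log2 fold change of 1.27 with shA1 (SE 0.27, DESeq2 adjusted p = 4.01e-05) was a 2.4-fold rise (95% interval 1.66 to 3.48). The SE of 0.27 was larger than that of 96.4% of the 1095 genes with a base mean within 1.25-fold, whose median SE was 0.20. With shB2 the log2 fold change was -0.31 (SE 0.28, DESeq2 adjusted p = 0.451), with a 95% interval of -0.85 to 0.24 that lies below the interval for shA1. With MC2580 it was -1.20 (SE 0.34, DESeq2 adjusted p = 0.0359), past the fold threshold but not the p threshold. Of the genes beside C3AR1, NECAP1, which acts in clathrin-mediated endocytosis, was 0.88 with shA1 (DESeq2 adjusted p = 2.03e-06) and -0.54 with shB2 (DESeq2 adjusted p = 0.00613), both short of the fold threshold. FOXJ2 on the other side, a forkhead transcription factor gene, was 0.56 and 0.65.

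CYSLTR1, the receptor for leukotriene D4, had similar values with both hairpins. Its implied level was 608 normalized counts in EV, 1190 with shA1 and 1380 with shB2. The log2 fold change was 1.19 (SE 0.18, DESeq2 adjusted p = 2.28e-10) with shB2, a 2.28-fold rise (95% interval 1.79 to 2.89). With shA1 it was 0.97 (SE 0.18, DESeq2 adjusted p = 5.99e-07), which passed the p threshold and fell short of the fold threshold. With MC2580 it was -0.01 (SE 0.26), with a 95% interval of -0.52 to 0.50. Of the stretches of 50 bases in its transcripts, 12.4% also occur in other genes. TAF9B, the nearest coding gene on one side at 131818 bases, fell with shB2 by 2.23 on the log2 scale (DESeq2 adjusted p = 6.5e-25) and was 0.15 with shA1.

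LTB4R, the high-affinity receptor for leukotriene B4, was low throughout and passed in none of the comparisons. Its implied level was 29.4 normalized counts in EV, 14.7 with shA1, 17 with shB2, 28.8 in DMSO and 47.7 with MC2580. Its level was 0.5-fold that of EV (95% interval 0.155 to 1.61, DESeq2 adjusted p = 0.459) with shA1 and 0.58-fold (95% interval 0.176 to 1.91, DESeq2 adjusted p = 0.563) with shB2, and 1.65-fold that of DMSO (95% interval 0.672 to 4.06) with MC2580. These intervals leave room for changes of several-fold. LTB4R2, which overlaps it, had base means of 7.3 and 12.3. It was not tested with shA1 and did not pass with shB2 or MC2580.

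The formyl peptide receptors had low levels throughout. FPR2, which also reads annexin A1 and serum amyloid A, had an implied level of 6.68 normalized counts in EV, 2.79 with shA1, 37.3 with shB2, 3.63 in DMSO and 7.89 with MC2580. Its log2 fold change was 2.48 (SE 1.02, DESeq2 adjusted p = 0.0453) with shB2 and -1.26 (SE 1.17, DESeq2 adjusted p = 0.5) with shA1, neither of which passed. FPR1, the high-affinity receptor for formyl peptides, had implied levels of 0.258 normalized counts in EV, 4.24 with shA1 and 11.2 with shB2. The fitted log2 fold change of FPR1 with shB2 was 5.43 (SE 2.35, DESeq2 adjusted p = 0.0591). Its 95% interval of 0.83 to 10.03 runs from 1.78-fold to 1050-fold. Against a level so near 0, so wide an interval does not size the change. FPR3 stayed at 5.57 normalized counts or less in every group. FPR1 with shB2 had an unadjusted p of 0.0206 in DESeq2 and did not pass after adjustment.

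Whether the treatments differed at a receptor was tested on the difference of the log2 fold changes. The SE for the hairpins is an upper bound because both use the same EV libraries, and the comparisons with MC2580 set a compound at 24 h against knockdowns at 48 h. Between the hairpins, 1 of 6 receptors differed, C3AR1, by -1.57 for shB2 minus shA1 (SE 0.39, Wald test of the difference, adjusted p = 0.00114), beside 2.2% of 16673 genes lower with shB2 and 0.828% higher. PTAFR was higher with shB2 by 0.88 (SE 0.21, Wald test of the difference, adjusted p = 0.000525), short of the fold threshold. FPR2 differed by 3.74 (SE 1.55, Wald test of the difference, adjusted p = 0.113), which did not pass with this SE. It passed with an assumed covariance of the shared EV libraries taken off (Wald test of the difference, adjusted p = 0.00879), bringing the count to 2. That covariance was set from the smaller SE and not measured, and the implied levels of FPR2 are low. For C5AR1 the difference of 1.53 (95% interval -0.26 to 3.33, Wald test of the difference, adjusted p = 0.385) did not pass. For CYSLTR1 it was 0.22, and the 95% interval of -0.27 to 0.70 limits it to less than the fold threshold.

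Between MC2580 and shA1, C3AR1 was again the 1 receptor of 6 that differed, by -2.46 (SE 0.43, Wald test of the difference, adjusted p = 3.51e-06), beside 1.5% of 16495 genes lower with MC2580 and 0.503% higher. Between MC2580 and shB2, 3 of 6 receptors were lower with MC2580, beside 2.47% of 17378 genes lower and 2.03% higher. These were C5AR1 by -3.13 (SE 0.79, Wald test of the difference, adjusted p = 0.00187), PTAFR by -1.51 (SE 0.29, Wald test of the difference, adjusted p = 9.8e-06) and CYSLTR1 by -1.20 (SE 0.31, Wald test of the difference, adjusted p = 0.00283). At C3AR1 the difference between MC2580 and shB2, -0.89 (95% interval -1.75 to -0.04, Wald test of the difference, adjusted p = 0.195), did not pass.

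**Figure D3:**
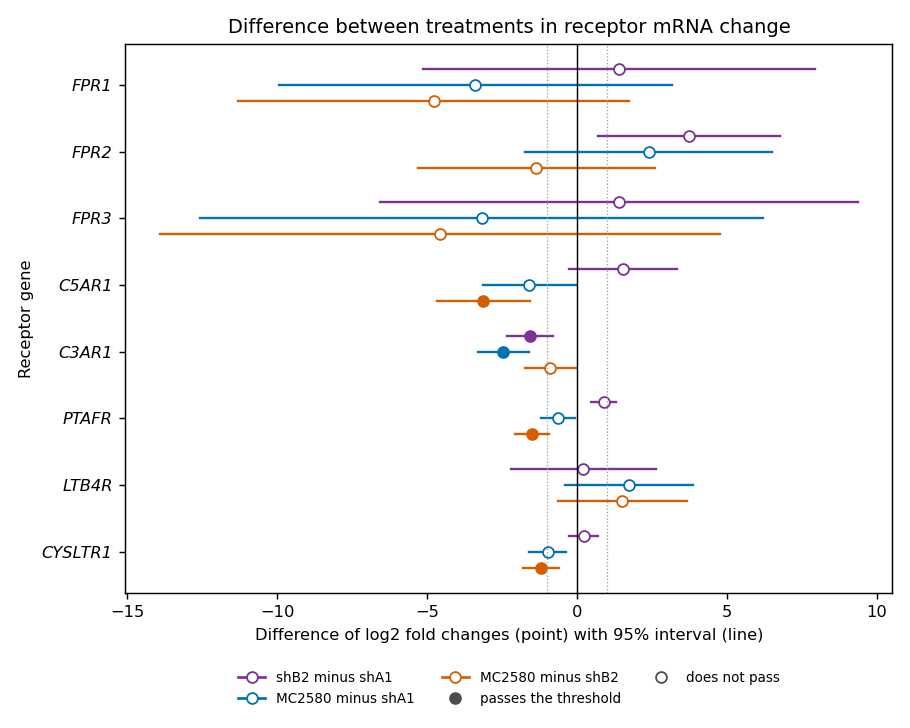
Difference between treatments in the log2 fold change of each receptor (point) with its 95% interval (line), filled points having an adjusted p under 0.01 and a size over 1 (dotted lines). C3AR1 stands at -1.57 for shB2 minus shA1, and C5AR1, PTAFR and CYSLTR1 stand between -3.13 and -1.20 for MC2580 minus shB2.

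Of 12 other receptors for chemoattractants and lipid mediators, 1 of 9 tested rose with shA1, 4 of 10 rose and 1 fell with shB2, and 0 of 10 passed with MC2580. The shares of all genes given above for the 8 receptors apply to this list and to those that follow. CMKLR1, the chemerin receptor, rose from an implied level of 18.5 normalized counts in EV to 503 with shA1 and 463 with shB2, a log2 fold change of 4.77 (SE 0.34, DESeq2 adjusted p = 7.18e-43) and 4.65 (SE 0.34, DESeq2 adjusted p = 4.83e-41), larger than that of any of the 8 receptors that passed. PTGDR2, a prostaglandin D2 receptor, rose with shB2 by 1.88 (SE 0.37, DESeq2 adjusted p = 3.86e-06) and OXER1, an eicosanoid receptor named outside the rule for named genes, by 1.83 (SE 0.52, DESeq2 adjusted p = 0.00204). P2RY2, a receptor for extracellular ATP and UTP, fell with shB2 by 1.10 on the log2 scale. GPR84, also named outside the rule, was at 0.95 with MC2580 (SE 0.23, DESeq2 adjusted p = 0.00486), short of the fold threshold. With shA1 it was at 0.67 and with shB2 at -0.77. Its hairpin difference of -1.44 passed (SE 0.19, Wald test of the difference, adjusted p = 1.37e-11), as did that of C5AR2, 1.70 (SE 0.39, Wald test of the difference, adjusted p = 0.000405). The list's median was 0.61, 0.33 and 0.33 with shA1, shB2 and MC2580.

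Among 12 genes of ligands and ligand synthesis, 1 of 11 tested rose with shA1, 4 of 11 with shB2 and 0 with MC2580. ALOX5AP, which presents arachidonic acid to 5-lipoxygenase for leukotriene synthesis, rose with both hairpins, by 2.17 (SE 0.39, DESeq2 adjusted p = 5.43e-07) and 2.26 (SE 0.39, DESeq2 adjusted p = 9.47e-08). ANXA1, whose protein is a ligand of FPR2, was at 2790 normalized counts in EV, 1960 with shA1 and 7220 with shB2, a rise of 1.37 with shB2 (SE 0.14, DESeq2 adjusted p = 2.3e-21) and a value of -0.51 with shA1. CAMP, the gene of another FPR2 ligand, the cathelicidin peptide, rose by 3.89 (SE 0.83) and C5, the precursor of C5a, by 1.51 (SE 0.49) with shB2. The implied level of CAMP was low, at 4.79 normalized counts in EV and 71.1 with shB2. Of the 8 genes that inactivate these ligands, 0 of 4 tested passed with shA1, 1 of 5 with shB2 and 0 of 5 with MC2580, the 1 being DPEP2, a dipeptidase that cleaves leukotriene D4, at 1.83 (SE 0.49, DESeq2 adjusted p = 0.00103).

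Downstream of the receptors, 23 genes of G proteins and effectors were tested, of which 4 rose with shA1, 8 with shB2 and 1 with MC2580. None passed as lower. By an adjusted p under 0.01 alone, 14, 15 and 2 were higher and 1, 2 and 0 were lower. The lower genes, named outside the rule, were GNG5 with both hairpins (-0.38 each) and LYN with shB2 (-0.49). With shA1, LYN was higher, at 0.80 (SE 0.12, DESeq2 adjusted p = 2.44e-10), short of the fold threshold. Its hairpin difference of -1.28 passed (SE 0.17, Wald test of the difference, adjusted p = 1.77e-12). GNG2, a gamma subunit, rose in all 3 comparisons, by 1.35 (SE 0.16), 2.00 (SE 0.16) and 1.14 (SE 0.24, DESeq2 adjusted p = 0.000612 with MC2580). PIK3CG, the catalytic subunit of PI3K gamma, rose with shB2 by 1.55 (SE 0.12, DESeq2 adjusted p = 4.62e-36). PREX1, a Rac exchange factor activated by G protein beta gamma subunits, rose by 1.39 (SE 0.11) with shB2 and was at 0.99 (SE 0.11) with shA1. Of 12 genes of receptor desensitization, 0 passed in DESeq2 in each of the 3 comparisons. Over all tested genes 4.32%, 5.58% and 0.587% rose, so 0 of 12 does not set this list apart. An adjusted p under 0.01 was found for 1, 3 and 0 of the 12, beside 19.3%, 26.3% and 0.76% of all tested genes.

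**Figure D4:**
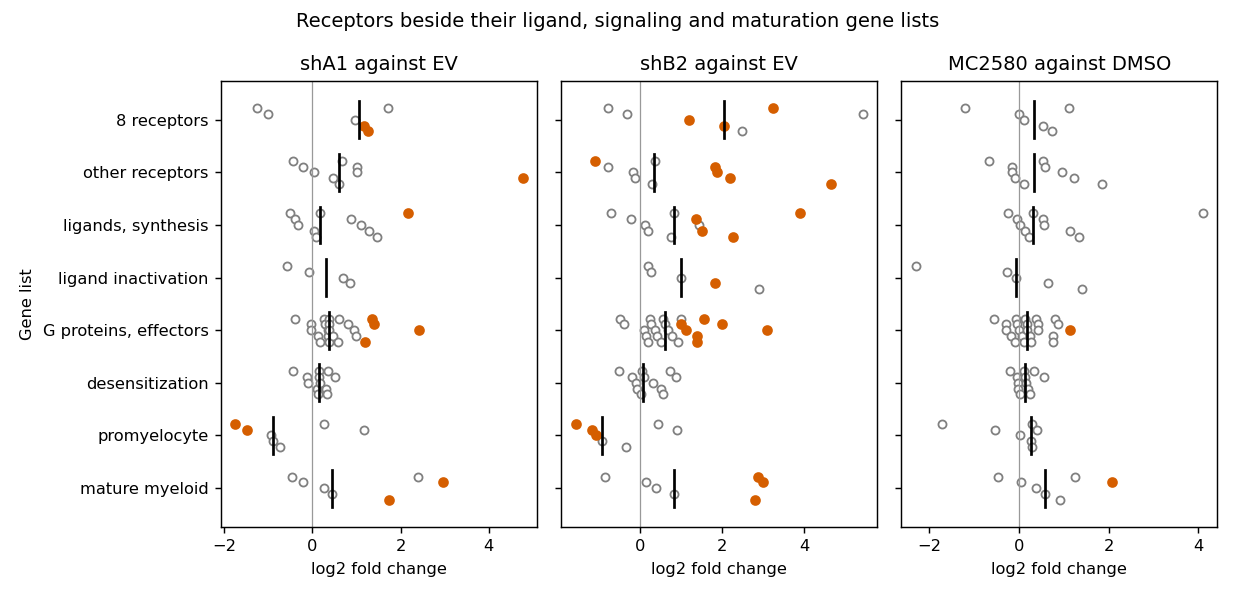
The log2 fold change (horizontal axis) of the tested genes of each list in the 3 comparisons, filled points having passed the test and black bars marking the list's median. The desensitization list holds no filled point. The median of the tested receptors was 1.07 with shA1 (6 receptors), 2.05 with shB2 (7, FPR1 included) and 0.33 with MC2580 (6). These medians are not over the same genes.

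Markers of maturation also changed. Of 7 mature myeloid markers, 2 rose with shA1, 3 with shB2 and 1 with MC2580, and ITGAM, which encodes CD11b, rose in all 3, by 2.95 (SE 0.15), 2.99 (SE 0.15) and 2.07 (SE 0.32). CD14 rose with shB2 by 2.88 (SE 0.83, DESeq2 adjusted p = 0.00255) and was at -0.48 (SE 0.96) with MC2580. With shA1 it was at 2.39 (SE 0.84, DESeq2 adjusted p = 0.02), which did not pass. Its implied level was low, at 6.97 normalized counts in EV, 36.5 with shA1 and 51.4 with shB2. Other mature markers, named here outside the rule, had values below 0 and did not pass: FCGR1A was at -0.45 with shA1 and -0.84 (DESeq2 adjusted p = 0.0278) with shB2, and MNDA at -0.22 with shA1. Of 7 tested promyelocyte markers, CTSG and PRTN3 fell with shA1, AZU1, CEBPE and PRTN3 with shB2 and 0 with MC2580. CD33 and KIT, also named outside the rule, had values above 0 with the hairpins, CD33 at 0.26 and 0.43 (DESeq2 adjusted p = 0.000751 with shB2, short of the fold threshold) and KIT at 1.17 (SE 0.63) and 0.91 (SE 0.63), which did not pass. The promyelocyte list's summed implied level was 730000 normalized counts in EV, 439000 with shA1, 389000 with shB2, 768000 in DMSO and 922000 with MC2580, most of it from MPO. The mature list summed to 13200, 16600, 20100, 12600 and 18500 in the same groups. In bulk RNA more cells of a type and more RNA per cell cannot be told apart, and the part of these markers in the receptor changes was not tested.

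Of 10 markers of other cell types, 0 of 6 tested passed with shA1 and 0 of 4 with MC2580, and with shB2 1 of 6 did, CD3D, which fell by 1.29 on the log2 scale. The list summed to between 967 and 1640 normalized counts over the 5 groups, nearly all of it from CD3D and EPCAM. The T cell marker CD3E was near 0 (base means 1.55 and 2.98), and the platelet marker PF4 was at 0 in both experiments.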

How the data were processed

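NB4 cells were profiled by mRNA-seq (TruSeq RNA v2, which does not mark strand) in 2 experiments with 5 groups of 2 biological replicates. The sample titles spell MC2580 as MC280. Reads were aligned by the authors to hg38 (STAR 2.7), genes were quantified by RSEM, and comparisons were fitted in DESeq2. The authors deposited a signal, the base mean, which averages counts divided by size factors. For each comparison they deposited a log2 fold change with its standard error. The authors' score column is the Wald statistic. Each deposited p-value is from the Wald test, with another column adjusted by Benjamini-Hochberg over the genes tested, which leave out those with a low base mean. Because only these comparison results were used, the depth of each library is unknown here, and neither a count interval nor a count test was computed. The effect of mapping reads of overlapping or similar genes could not be examined.

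Hairpin names were given to columns by matching the fold changes of 1997 genes in a supplementary table, all of which equalled the chosen column and 0 the other one. Columns that could not be mapped numbered 0. Differences between comparisons were tested by Wald tests that took the fold changes and standard errors as deposited (Python 3.11.15, scipy 1.17.1), adjusted by Benjamini-Hochberg over all genes with an adjusted p-value in both, after the method was tested on simulated data. The simulated errors were independent, so the EV libraries shared by the hairpins were not simulated. Group levels were computed from the base mean and fold changes. The 95% intervals are normal intervals from the standard error. Genes named were the 8 receptors, GSE1, KDM1A, up to 4 genes with the smallest adjusted p-values among those that passed from each list, the nearest coding genes, and the 3 genes nearest in the log2 fold changes; others are said to be so or were named as marker checks. Some genes that this rule names are not reported here. The members and lists were chosen with earlier results of these data known. The alternatives tried were other thresholds, protein-coding genes only, a base mean of at least 50, adjustment by another set of genes and, for the hairpins, a smaller standard error.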

Additional observations from a re-analysis of the deposited data

Results flagged for a closer look

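C3AR1 stood out among the receptors because the hairpins against the same target gave different changes. Its log2 fold change against EV was 1.27 (SE 0.27) with shA1 and -0.31 (SE 0.28) with shB2, a difference of -1.57 for shB2 minus shA1 (SE 0.39, Wald test of the difference, adjusted p = 0.00114). The same test was passed by 2.2% of all 16673 tested genes as lower with shB2 and by 0.828% as higher. Other listed genes passed it too, such as GPR84 and LYN as lower and ANXA1 and C5AR2 as higher. The mRNA of GSE1 itself was at -0.77 with shA1 and -0.79 with shB2. These values do not measure GSE1 protein. By western blot, at a later time after infection, the paper found shB2 to deplete GSE1 more effectively than shA1. Whether a difference in GSE1 protein bears on C3AR1 was not tested.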

How the results depend on the processing

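Of the 37 recomputed counts of receptors that passed, 31 were within 1.5 times the original count and 6 were not. The alternatives change thresholds, the genes adjusted over or a standard error, so no direction could change. With a log2 fold change over 2, the count was 0 instead of 2 for shA1, 0 instead of 1 for shB2 minus shA1, and 1 (C5AR1) instead of 3 for MC2580 minus shB2. With an adjusted p under 0.05, 1 receptor (C3AR1) passed with MC2580 instead of 0. Between the hairpins the count was 2 instead of 1 with no fold threshold (C3AR1 and PTAFR). It was also 2 with an assumed covariance of the shared EV libraries taken off (C3AR1 and FPR2, the latter at 3.74, Wald test of the difference, adjusted p = 0.00879). Each move follows from the changed threshold or standard error itself. Of 300 recomputed values of single genes, 285 kept their side of the threshold, 6 lost it and 9 gained it. No paired analysis was possible because the tables used give no value per library, and leaving out a replicate or computing group levels another way was not run for the same reason. Low base means limit FPR1, FPR2, FPR3 and LTB4R.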

Other observations

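Among 10916 protein-coding genes whose base means reached 50 in the knockdown and in the inhibitor experiment, those nearest to each receptor in its 3 log2 fold changes (Euclidean distance) were as follows, as a description over 3 comparisons of which 2 share the EV libraries. PTAFR was nearest to KCNK6 at a distance of 0.12, with log2 fold changes of 1.25, 2.15 and 0.54 for shA1, shB2 and MC2580, and then to MICB and FCGR2A, both at 0.15. FCGR2A encodes a low-affinity receptor for IgG on myeloid cells and MICB a ligand of the NKG2D receptor. CYSLTR1 was nearest to PSKH1 at 0.05, KIF1B at 0.10 and CTNND1 at 0.13. C5AR1 was nearest to ZNF469 at 0.20, RAB27B, a small GTPase of granule secretion, at 0.39 and TNFSF9, the ligand of 4-1BB, at 0.41.

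For the others, C3AR1 had CCDC113 at 0.25, with log2 fold changes of 1.18, -0.13 and -1.03, and then MAP3K9 at 0.65 and SLC9A7 at 0.66. LTB4R had PARD6G at 0.28, AP000812.5 at 0.33 and PRSS53 at 0.34. FPR2 had GPR183 at 1.02, CXCR2 at 1.37 and FBP1 at 1.43. The SEs of its fold changes, 1.17, 1.02 and 1.74 with shA1, shB2 and MC2580, are of the size of these distances. Those of LTB4R, 0.86, 0.88 and 0.66, exceed its distances. The SEs of C5AR1 (0.65, 0.65 and 0.45), CYSLTR1 (0.18, 0.18 and 0.26) and PTAFR (0.15, 0.15 and 0.25) also match or exceed their distances. Those of C3AR1, 0.27, 0.28 and 0.34, exceed its distance to CCDC113. For all these receptors the genes named as nearest are therefore uncertain. FPR1 and FPR3 lacked an adjusted p in at least 1 comparison and were not ranked.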
